A study of Mus musculus with 20 samples.

Results

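RNA levels of 9 genes of classical MHC class I and its peptide loading were measured in splenic dendritic cells, B cells and a CD11c-intermediate population: H2-K1, H2-D1, B2m, Tap1, Tap2, Tapbp, Tapbpl, Nlrc5 and Erap1. They were taken by gene symbol from a table of 28338 genes. All 9 were among the 18710 genes with enough reads to be tested.

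MHC class I molecules show peptides from inside the cell to CD8+ T cells. Peptides cut by the proteasome are pumped into the endoplasmic reticulum by the TAP transporter, trimmed there and loaded onto a heavy chain that is paired with beta-2 microglobulin. Most nucleated cells carry class I, and type 1 conventional dendritic cells (cDC1) are known for loading it with peptides from material they have taken up, which is called cross-presentation.

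The cells were sorted from spleens of C57BL/6 mice at postnatal day 21, and RNA-seq gave 20 libraries in 5 groups of 4. From mice labelled March1-/- came CD11cint cells (sorted as CD11cintCD24+CD8int), cDC1 and B cells, and from wild type (WT) mice came cDC1 and B cells. March1 encodes a membrane ubiquitin ligase known to take MHC class II and CD86 off the surface of antigen-presenting cells. Whether libraries of 1 group stem from separate mice is not stated by the labels, so p-values measure library-to-library spread only, which may be technical.

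The libraries held 22491084 to 32751804 counts. Levels are CPM, counts scaled to 1000000 per library after TMM scaling of library sizes, and 3 counts corresponded to 0.0916 to 0.1334 CPM. The 6 B cell markers summed to 7863 to 8809 CPM in CD11cint cells, 7397 to 8088 CPM in March1-/- B cells and 7490 to 7828 CPM in WT B cells, against 113.9 to 182 CPM in cDC1 of both genotypes. The 9 cDC1 markers summed to 6727 to 7602 CPM in cDC1, against 289 to 389.9 CPM in the other groups. Irf8 made up most of that sum in CD11cint cells, at 251 to 335 CPM, against 298 to 343 CPM in March1-/- B cells. Against March1-/- B cells, edgeR called 5 of the 9 cDC1 markers higher in CD11cint cells and none lower, where 12.5% of all genes were called higher and 12.2% lower. Of genes that define cDC1, picked here after their values were seen, Xcr1 was at 2.92 to 4.03 CPM in CD11cint cells, against 1.41 to 2.16 CPM in March1-/- B cells, and Cd8a, whose protein is part of the sort, at 4.21 to 6.42 and 1.41 to 2.39 CPM. In March1-/- cDC1 these genes were at 754.5 to 849.6 and 923.4 to 972.5 CPM. Itgax, the gene of CD11c, was at 8.32 to 12.7 CPM in CD11cint cells, against 7.05 to 12.7 CPM in March1-/- B cells. In WT B cells Itgax was at 7.69 to 17.0 CPM. March1 was counted at 253 to 272 CPM in March1-/- cDC1, against 322 to 380 CPM in WT cDC1 (log2 difference -0.38, edgeR adjusted p = 0.00306). In B cells it was at 134 to 171 CPM in libraries labelled March1-/- and 137 to 159 CPM in WT libraries (0.04, edgeR adjusted p = 0.89). The sources used here do not give the deleted part of March1. Counts over the whole gene therefore do not check the genotype labels, and March1-/- below names libraries by their label.

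Promoter sequences were at hand for 6 of the 9 genes (RefSeq, GRCm38.p6, 250 bases before to 50 after the listed start). Those of the 2 heavy chains are shown because H2-K1 and H2-D1 differed in their order between the cell types, and those of B2m and Tap1 because they carry fewer or other matches. Capitals mark matches, on either strand, to an interferon-response type motif (GAANNGAAA or GAANNNGAAA), a kappa B type motif (GGGANNNCC), a CCAAT box (CCAAT) or a short cAMP response element (TGACG). The windows lie at chr17:34000298-34000597 (minus strand) for H2-K1, chr17:35262844-35263143 (plus) for H2-D1, chr2:122147437-122147736 (plus) for B2m and chr17:34187306-34187605 (plus) for Tap1.
H2-K1: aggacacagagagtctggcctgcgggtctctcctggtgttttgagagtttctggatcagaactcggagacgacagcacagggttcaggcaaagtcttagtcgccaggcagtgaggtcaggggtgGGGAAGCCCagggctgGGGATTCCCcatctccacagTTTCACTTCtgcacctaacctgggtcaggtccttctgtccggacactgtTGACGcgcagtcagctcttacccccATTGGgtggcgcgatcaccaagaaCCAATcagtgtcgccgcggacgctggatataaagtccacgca
H2-D1: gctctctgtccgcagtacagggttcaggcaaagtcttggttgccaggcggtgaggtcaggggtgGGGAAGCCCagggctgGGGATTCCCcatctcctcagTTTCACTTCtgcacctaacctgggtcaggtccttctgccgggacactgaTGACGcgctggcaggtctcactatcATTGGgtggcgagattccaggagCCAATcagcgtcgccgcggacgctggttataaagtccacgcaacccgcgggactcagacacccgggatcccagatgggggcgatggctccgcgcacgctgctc
B2m: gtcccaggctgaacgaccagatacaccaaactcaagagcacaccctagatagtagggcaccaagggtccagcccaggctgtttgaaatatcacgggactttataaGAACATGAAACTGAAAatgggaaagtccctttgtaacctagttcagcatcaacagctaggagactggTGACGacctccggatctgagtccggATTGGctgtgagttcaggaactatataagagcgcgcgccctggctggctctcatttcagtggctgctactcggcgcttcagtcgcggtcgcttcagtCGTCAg
Tap1: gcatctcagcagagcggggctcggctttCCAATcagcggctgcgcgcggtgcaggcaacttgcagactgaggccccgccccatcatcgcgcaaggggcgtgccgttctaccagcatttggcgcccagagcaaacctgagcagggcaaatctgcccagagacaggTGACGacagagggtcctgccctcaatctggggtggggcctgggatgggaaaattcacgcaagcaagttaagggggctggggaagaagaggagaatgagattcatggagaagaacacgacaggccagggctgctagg

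The H2-K1 and H2-D1 windows aligned over 239 bases, of which 214 were identical (89.5%), and they held the same matches in the same order. In each, the kappa B type motif counted 3 times, because its second site reads as a match on both strands. It was followed by 1 GAANNGAAA, 1 TGACG and 2 CCAAT matches. The B2m window held 2 GAANNNGAAA matches that overlap each other, 1 CCAAT and 2 TGACG matches, and the Tap1 window held 1 CCAAT and 1 TGACG match. Over 32851 promoters of the same length, GAANNGAAA was present in 7.5%, GAANNNGAAA in 7.9%, GGGANNNCC in 18.6%, CCAAT in 37.4% and TGACG in 20.8%. The windows of Tapbp and Erap1 held 2 CCAAT matches and 1 GAANNNGAAA match, in that order of genes.

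The heavy chains lie in the MHC on chromosome 17 (GRCm38), H2-K1 at 33996017 to 34000347 on the minus strand and H2-D1 at 35262730 to 35267499 on the plus strand. Each encodes the peptide-binding chain of a class I molecule. H2-K1 was at 2166, 1769, 1731 and 1649 CPM in CD11cint libraries, 1389, 1392, 1461 and 1391 CPM in March1-/- cDC1 and 1728, 1617, 1589 and 1521 CPM in March1-/- B cells. In WT mice it was at 1448, 1458, 1433 and 1580 CPM in cDC1 and 1575, 1536, 1480 and 1586 CPM in B cells. The highest values were those of CD11cint cells, which overlapped March1-/- B cells, and cDC1 and B cells overlapped in WT mice but not in March1-/- mice.

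H2-D1 had a different order. It was at 1534, 1302, 1249 and 1170 CPM in CD11cint libraries, 1898, 1881, 2019 and 1848 CPM in March1-/- cDC1 and 1407, 1330, 1313 and 1236 CPM in March1-/- B cells. WT mice had 1987, 1984, 1907 and 2058 CPM in cDC1 and 1238, 1240, 1187 and 1245 CPM in B cells. Every cDC1 library of either genotype lay above every other library, while CD11cint cells overlapped both B cell groups. The share of all genes with such a separation was not counted, here or for the genes below. Near-identical class I genes can share reads with both heavy chains: of 50-base windows of their transcripts, 9.6% of those of H2-K1 (most with H2-Q10) and 12.8% of those of H2-D1 (most with H2-Q1) also occur in another gene. These shares were 3.1% and 5.4% for 75-base windows and 1.0% and 3.6% for 100-base windows. Read length and the handling of reads with several matches were not given in the sources used here.

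B2m, on chromosome 2 at 122147686 to 122153083, encodes beta-2 microglobulin, the light chain that all class I molecules share. It was at 1700, 1366, 1266 and 1210 CPM in CD11cint libraries, 1695, 1759, 1627 and 1678 CPM in March1-/- cDC1 and 1343, 1296, 1191 and 1170 CPM in March1-/- B cells. WT libraries were at 1857, 1873, 1732 and 1686 CPM in cDC1 and 1203, 1186, 1221 and 1121 CPM in B cells. cDC1 lay above B cells with no overlap in either genotype, and library 1 of CD11cint cells reached the cDC1 range.

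Tap1 and Tap2 encode the 2 chains of the peptide transporter and lie near each other on chromosome 17 (34187553 to 34197225 and 34203527 to 34216321, plus strand). Tap1 was at 245.5, 244, 239 and 264 CPM in CD11cint libraries, 506, 498, 557.5 and 554 CPM in March1-/- cDC1 and 234, 242, 246 and 258 CPM in March1-/- B cells. In WT mice it was at 491, 524, 489.7 and 579 CPM in cDC1 and 246, 235, 227 and 251 CPM in B cells. The cDC1 libraries formed 1 high range and all other libraries 1 low range, with no overlap. Tap2 was at 124.5, 119, 116 and 106 CPM in CD11cint libraries, 249.9, 242, 283 and 247 CPM in March1-/- cDC1 and 112, 106, 110.2 and 109 CPM in March1-/- B cells. WT libraries were at 250.4, 263.5, 249.6 and 290.2 CPM in cDC1 and 114, 108, 99.2 and 117 CPM in B cells. It had the same high and low ranges as Tap1. The sources used here do not state whether reads were counted by strand, and 3.871% of Tap1 exon bases (with Psmb9) and 18.461% of Tap2 exon bases (with Gm15821 and Gm20496) overlap genes on the opposite strand, whose reads then cannot be told apart.

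Tapbp (chromosome 17, 33915899 to 33929292, plus strand) encodes tapasin, which holds the class I molecule at the transporter, and Tapbpl (chromosome 6, 125223933 to 125231860, minus strand) encodes its relative TAPBPR, a peptide editor. Tapbp was at 230.2 to 289.7 CPM in CD11cint cells, 389.8 to 425 CPM in March1-/- cDC1, with 226 to 259.7 CPM in March1-/- B cells, and at 420.1 to 447 CPM in WT cDC1, against 231 to 247 CPM in WT B cells. Tapbpl was at 35.4 to 38.3 CPM in CD11cint cells, 71.6 to 89.4 CPM in March1-/- cDC1, with 33.6 to 38.1 CPM in March1-/- B cells, and at 80.8 to 89.0 CPM in WT cDC1, against 35.3 to 40.9 CPM in WT B cells. In both genes cDC1 stood clear of the rest and CD11cint cells lay within or beside the B cell range. Of Tapbp exon bases 29.024% are shared, 24.917% with a gene on the opposite strand (Gm19412, at 15.0 to 29.1 CPM over all libraries).

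Nlrc5 (chromosome 8, 94434356 to 94527272, plus strand, 28.0 Mb from March1 on the same chromosome) encodes a transactivator of class I genes. It was at 111, 146, 156 and 185 CPM in CD11cint libraries, 208, 245, 293 and 252 CPM in March1-/- cDC1 and 128, 141, 157 and 176 CPM in March1-/- B cells. For WT mice the values were 224, 271, 268 and 341 CPM in cDC1 and 175, 162, 156 and 187 CPM in B cells. It had the widest spread of the 9 genes in every group, with a coefficient of variation of 8.06 to 20.3%, yet cDC1 did not overlap B cells of their genotype. Erap1 (chromosome 13, 74639568 to 74693201, plus strand) encodes the aminopeptidase that trims peptides in the endoplasmic reticulum. It was at 114 to 142 CPM in CD11cint cells, 167 to 183 CPM in March1-/- cDC1, with 119 to 135 CPM in March1-/- B cells, and at 182.5 to 209.5 CPM in WT cDC1, against 133 to 141 CPM in WT B cells. Again the cDC1 libraries were the high ones. Of Erap1 exon bases 11.456% overlap Cast on the opposite strand.

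**Figure D1:**
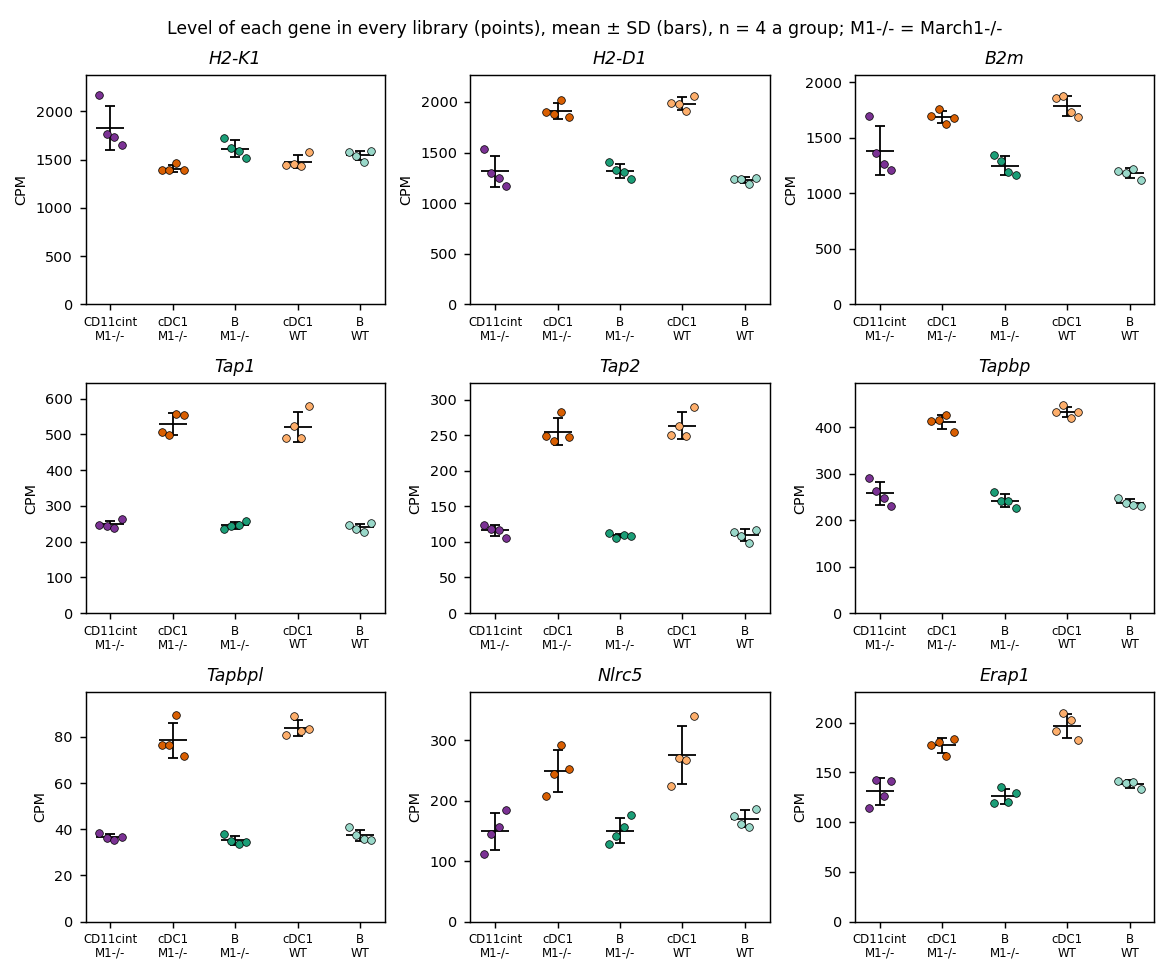
CPM (y axes from 0) of each gene in every library (points), with the mean ± SD of 4 libraries a group (bars). In 8 panels the cDC1 groups stand above the other groups by their means; in the panel of H2-K1 the CD11cint cells are highest and March1-/- cDC1 lowest.

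Per length, as CPM per kilobase of annotated exon, the level of B2m was the highest, at 1611 ± 255 in CD11cint cells, 1965 ± 63.0 in March1-/- cDC1, 1453 ± 96.2 in March1-/- B cells, 2078 ± 107 in WT cDC1 and 1375 ± 50.5 in WT B cells (SD, n = 4 each). It ranked between 26 and 36 of 18677 genes. The heavy chains followed, at 622 ± 78.5 for H2-K1 and 509 ± 60.7 for H2-D1 in CD11cint cells, 479 ± 12.1 and 741 ± 29.0 in March1-/- cDC1, and 549 ± 29.3 and 512 ± 27.1 in March1-/- B cells (SD, n = 4 each, H2-K1 first). In WT mice they were at 504 ± 23.0 and 769 ± 23.9 in cDC1 and at 526 ± 16.2 and 476 ± 10.5 in B cells. H2-D1 was thus the higher heavy chain in cDC1 of both genotypes and H2-K1 in the other 3 groups. Loading genes were lower per length, with Tapbp at 65.3 to 119, Tap1 at 43.8 to 96.6 and Tap2 at 28.9 to 69.7 CPM per kilobase over the group means. Tapbpl, Nlrc5 and Erap1 were the lowest, between 15.0 and 35.7, and their order differed between groups.

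**Figure D2:**
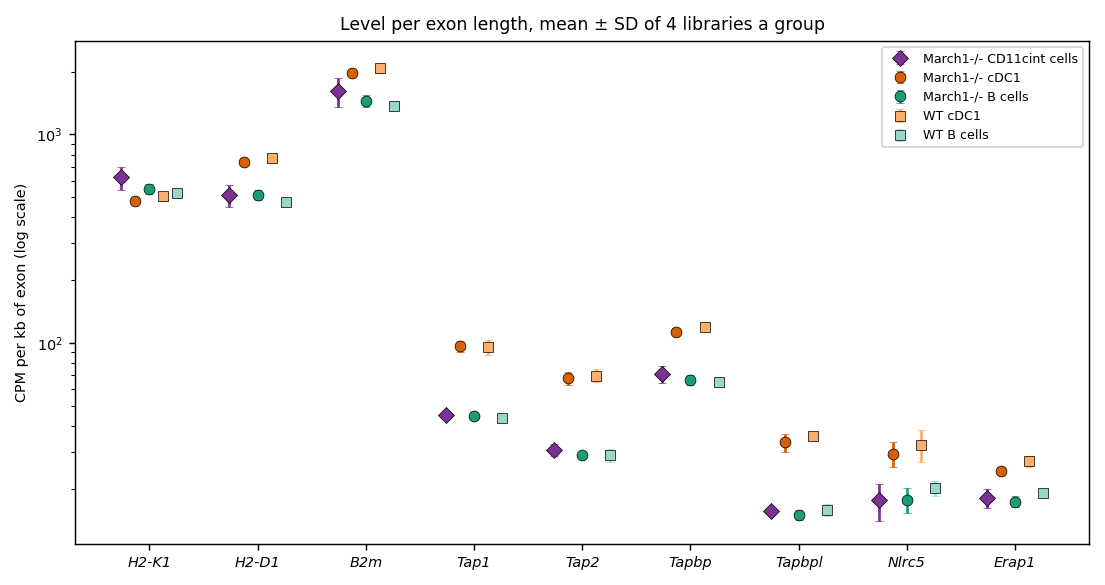
CPM per kilobase of exon (log axis) of each gene, as mean ± SD of 4 libraries for each group. B2m is highest at 1375 to 2078, the heavy chains lie at 476 to 769, and the other genes lie at 15.0 to 119.

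The first question was how dendritic cells and B cells of WT mice differed. Of the 9 genes, 8 were higher in WT cDC1 and none was lower, where 34.9% of all genes tested were called higher and 36.2% lower at an edgeR adjusted p under 0.05. Their median log2 difference was 0.70, against -0.04 over all genes. Tap2 (1.26 ± 0.07, 2.4-fold), Tapbpl (1.17 ± 0.07, 2.25-fold) and Tap1 (1.12 ± 0.07, 2.17-fold) differed most (log2 difference ± SE). Tapbp (0.87 ± 0.07), Nlrc5 (0.70 ± 0.14), H2-D1 (0.69 ± 0.07), B2m (0.60 ± 0.09) and Erap1 (0.51 ± 0.07) followed, and the largest adjusted p of the 8 was 0.000156 (edgeR). H2-K1 did not pass the test, at 1480 ± 67.6 CPM in WT cDC1, against 1544 ± 47.7 CPM in WT B cells (SD, n = 4 each), a log2 difference of -0.06 with a 95% interval of -0.22 to 0.09 (edgeR adjusted p = 0.477). With library totals in place of TMM factors it was called lower (-0.27, edgeR adjusted p = 0.000486), where the median of all genes was at -0.26.

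The same comparison in March1-/- mice gave 8 genes higher in cDC1 and 1 lower, where 35.7% of all genes were called higher and 35.9% lower. Tap2 (1.22), Tapbpl (1.16) and Tap1 (1.11) again had the largest log2 differences, and the others ran between 0.44 for B2m and 0.76 for Tapbp. H2-K1 was the gene that was lower, at 1408 ± 35.4 CPM in March1-/- cDC1, against 1614 ± 86.1 CPM in March1-/- B cells (SD, n = 4 each; log2 difference -0.20 ± 0.08 SE, edgeR adjusted p = 0.0239). Without library 1 of March1-/- B cells, this call was lost (-0.16, edgeR adjusted p = 0.0811). In bulk RNA, fewer cells of a type and less RNA per cell cannot be told apart. Markers of macrophages and monocytes summed to 328.5 to 388 CPM in March1-/- cDC1, against 60.2 to 75.5 CPM in March1-/- B cells, and to 295 to 359.5 CPM in WT cDC1, against 47.1 to 84.9 CPM in WT B cells, with 4 of 7 higher and 1 lower in cDC1 in each genotype. NK cell markers were lower in 5 of 5 genes in each genotype, at 1.86 to 4.13 CPM in March1-/- cDC1, against 15.2 to 51.4 CPM in March1-/- B cells, and at 3.34 to 6.12 CPM in WT cDC1, against 17.7 to 36.6 CPM in WT B cells. T cell markers were higher in 1 and lower in 5 of 7 genes in March1-/- mice (50.8 to 65.9 CPM in cDC1, against 77.0 to 94.7 CPM in B cells) and higher in 2 and lower in 4 in WT mice (42.5 to 60.4 CPM in cDC1, against 62.4 to 73.9 CPM in B cells). Markers of plasmacytoid dendritic cells were higher in 3 and lower in 1 of 4 genes in each genotype, at 220.6 to 246.3 CPM in March1-/- cDC1, against 171.9 to 208.1 CPM in March1-/- B cells, and at 176.9 to 231.5 CPM in WT cDC1, against 199.1 to 247.4 CPM in WT B cells. Erythroid markers were lower in 2 of 3 tested genes in March1-/- cDC1, at 583.4 to 1301 CPM, against 902.9 to 2696 CPM in March1-/- B cells. Single genes made up most of some sums. For T cell markers in cDC1 this was Cd4, at 36.8 to 50.2 CPM in March1-/- mice and 31.6 to 47.6 CPM in WT mice. In B cells it was Lck, at 52.2 to 69.0 and 47.1 to 51.2 CPM. For plasmacytoid markers in B cells it was Tcf4, at 136 to 160 and 157 to 181 CPM (March1-/- first). No gene of these lists was at 0, and their part in the results was not tested.

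**Figure D3:**
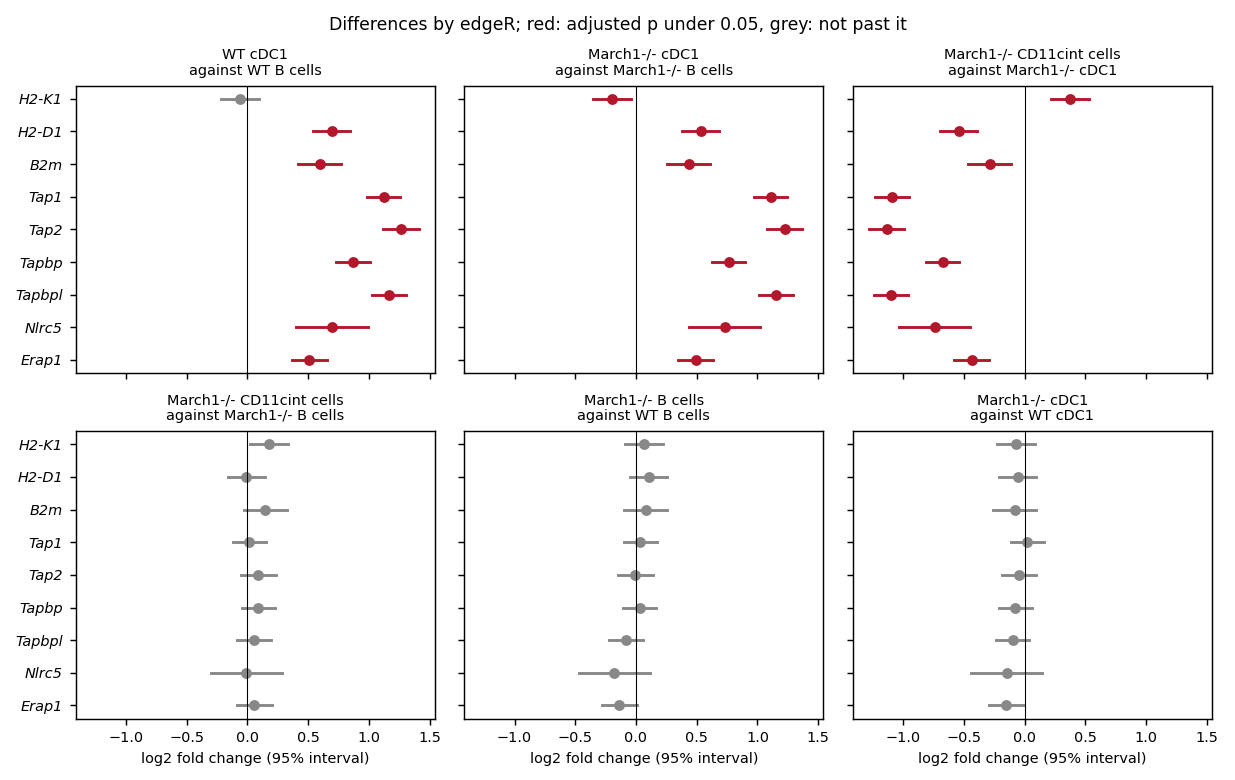
Log2 fold change (points, x axes) with its 95% interval (bars) of each gene in 6 comparisons. The fit was edgeR without a replicate block, and red marks an adjusted p under 0.05. cDC1 exceed B cells in 8 genes in each genotype, CD11cint cells lie below March1-/- cDC1 in 8 genes and above them in H2-K1, and the other 3 panels hold no red point.

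The other genes of the pathway were read from lists, step by step. Of 12 genes of peptide supply, 7 were higher and 2 lower in WT cDC1 than in WT B cells (median log2 0.20). Of all genes tested, 34.9% were called higher and 36.2% lower in that comparison. Psmb9, a subunit of the immunoproteasome, was at 322 ± 12.3 CPM in WT cDC1, against 105 ± 6.85 CPM in WT B cells, and Psme1, a proteasome activator subunit, at 492 ± 17.9 and 168 ± 6.68 CPM (SD, n = 4 each, cDC1 first). Thop1, a peptidase known to degrade peptides in the cytosol, was lower in WT cDC1 (-1.26 ± 0.09, edgeR adjusted p = 1.24e-11). Of 7 tested genes of 8 listed for folding in the endoplasmic reticulum, 5 were higher and 1 was lower, with a median of 1.06. Pdia3, the partner of tapasin in the loading complex, was at 1149 ± 108 CPM in WT cDC1, against 406 ± 27.9 CPM in WT B cells, and Calr, the chaperone calreticulin, at 1210 ± 75.7 and 577 ± 25.7 CPM.

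Genes of class I transcription were split, with 5 higher and 4 lower of 13 in WT cDC1 (median 0.06). These shares are near those of all genes tested, 34.9% higher and 36.2% lower. Subunits of the same RFX complex went opposite ways: Rfxap was higher (1.25 ± 0.10, edgeR adjusted p = 1.16e-10) and Rfx5 lower (-0.24 ± 0.09, edgeR adjusted p = 0.0166). Of 7 genes linked to cross-presentation, 5 were higher and 2 lower. Rab43, a small GTPase needed for cross-presentation by cDC1 in mice, was at 1302 ± 33.6 CPM in WT cDC1, against 74.0 ± 2.39 CPM in WT B cells, and Wdfy4, also needed for it in mice, at 3601 ± 202 and 859 ± 40.8 CPM (SD, n = 4 each, cDC1 first). Cybb, a subunit of the phagosomal NADPH oxidase, was lower in WT cDC1 (-2.27 ± 0.14, edgeR adjusted p = 1.11e-12). Interferon-response genes went both ways, with 5 higher and 8 lower of 13, for example Mx1 at 2.46 and Ifit3 at -2.88 on the log2 scale. March1-/- mice gave 6 higher and 1 lower for peptide supply, 5 and 1 for folding and 3 and 5 for transcription. They gave 5 and 1 for cross-presentation and 5 and 7 for the interferon response. Of all genes, 35.7% were called higher and 35.9% lower there.

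**Figure D4:**
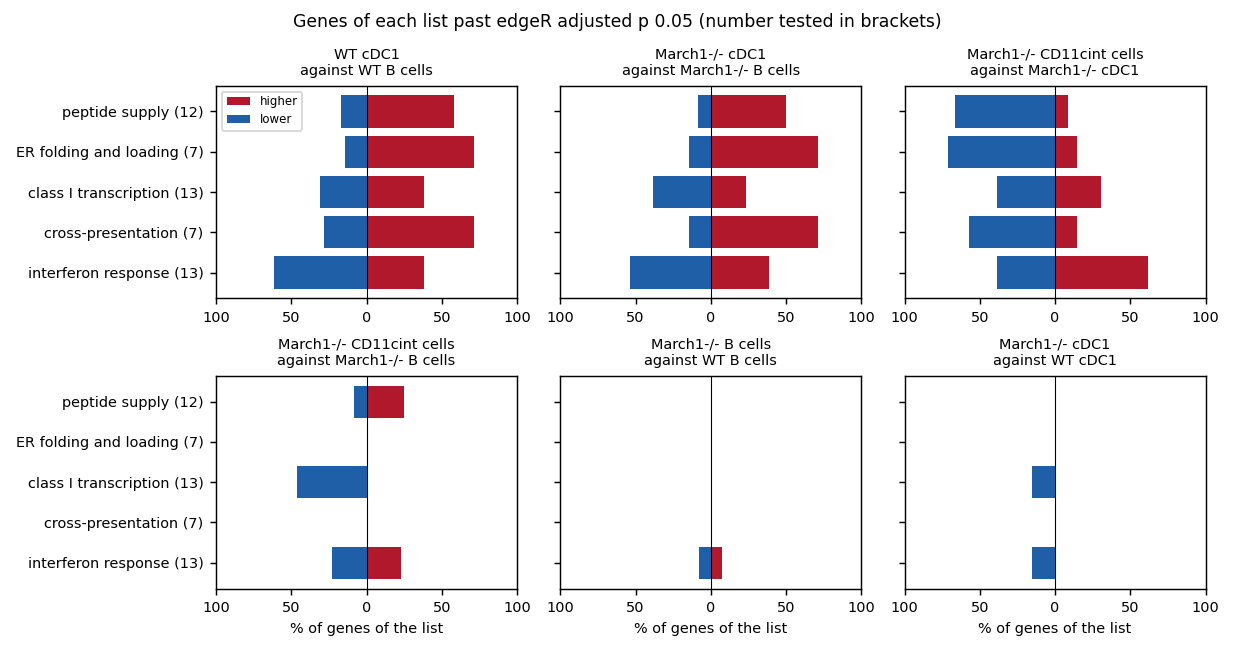
Share of the genes of each list called higher (red, to the right) or lower (blue, to the left) in 6 comparisons, as a percentage of the genes tested, whose number stands in brackets. Folding genes are called 5 higher and 1 lower in cDC1 of each genotype against its B cells, and no folding gene is called by edgeR between genotypes or between CD11cint cells and March1-/- B cells.

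CD11cint cells were next set against cDC1 of the same genotype. Of the 9 genes, 1 was higher in CD11cint cells, H2-K1, and 8 were lower, where 36.6% of all genes were called higher and 35.7% lower. H2-K1 averaged 1829 ± 231 CPM in CD11cint cells, against 1408 ± 35.4 CPM in March1-/- cDC1 (SD, n = 4 each; log2 0.38 ± 0.08 SE, edgeR adjusted p = 0.000118). The difference was 0.286 to 0.425 when any 1 library was left out, and lowest without library 1 of CD11cint cells. Tap2 (-1.13 ± 0.07), Tapbpl (-1.10 ± 0.07) and Tap1 (-1.09 ± 0.07) were lowest relative to March1-/- cDC1, at 0.455, 0.467 and 0.469 of the cDC1 level. Nlrc5 (-0.74 ± 0.14), Tapbp (-0.67 ± 0.07), H2-D1 (-0.54 ± 0.07) and Erap1 (-0.44 ± 0.07) were lower by less, each without overlap of the groups. B2m, whose groups overlapped, was at -0.29 ± 0.09 (edgeR adjusted p = 0.00481). The B2m call was lost when only these 2 groups were fitted (-0.27, edgeR adjusted p = 0.0602) and with library totals as the scale (-0.14, edgeR adjusted p = 0.0719).

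Around them, 1 gene of peptide supply was higher and 8 were lower of 12 in CD11cint cells than in March1-/- cDC1. Among folding genes, 1 was higher and 5 lower of 7 (median -0.89). Of all genes, 36.6% were called higher and 35.7% lower in this comparison. Psmb9 was at 124 ± 12.4 CPM in CD11cint cells, against 329 ± 14.1 CPM in March1-/- cDC1, and Pdia3 at 404 ± 69.2 and 1057 ± 52.6 CPM (SD, n = 4 each). Rab43 was at 70.4 ± 4.69 CPM in CD11cint cells, against 1275 ± 67.1 CPM in March1-/- cDC1. Among transcription genes 4 were higher and 5 lower of 13, among cross-presentation genes 1 higher and 4 lower of 7, and among interferon-response genes 8 higher and 5 lower of 13. Markers of macrophages and monocytes moved with this comparison too, 6 of 7 lower, at 37.0 to 46.8 CPM in CD11cint cells, against 328.5 to 388 CPM in March1-/- cDC1. Markers of plasmacytoid dendritic cells were 1 higher and 3 lower of 4 (177.1 to 216 CPM in CD11cint cells, against 220.6 to 246.3 CPM in March1-/- cDC1), T cell markers 1 higher and 2 lower of 7 (33.3 to 39.5 and 50.8 to 65.9 CPM), NK cell markers 1 higher of 5 (10.3 to 22.1 and 1.86 to 4.13 CPM) and erythroid markers 1 higher of 3 tested (879.8 to 2558 and 583.4 to 1301 CPM, CD11cint cells first). Prf1 made up most of the NK cell sum in CD11cint cells, at 8.35 to 16.1 CPM, against 0.357 to 0.566 CPM in March1-/- cDC1. For plasmacytoid markers in CD11cint cells it was Tcf4, at 143 to 191 CPM, against 83.0 to 101 CPM in March1-/- cDC1. No gene of these marker lists was at 0, and their part was not tested.

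Against B cells of the same genotype, edgeR without a replicate block called none of the 9 genes in CD11cint cells. Of all genes, 12.5% were called higher and 12.2% lower there. Among the 9, only H2-K1 had an unadjusted p under 0.05, and DESeq2 called none. The median log2 difference was 0.06, against 0.01 over all genes. H2-K1 averaged 1829 ± 231 CPM in CD11cint cells, against 1614 ± 86.1 CPM in March1-/- B cells (SD, n = 4 each; log2 0.18 ± 0.08 SE, edgeR adjusted p = 0.0891). Same-numbered libraries of these 2 groups deviated together, and with a replicate block within genotype H2-K1 passed the test (0.18, edgeR adjusted p = 0.0392). It passed also without library 4 of CD11cint cells (0.23, edgeR adjusted p = 0.0337), whereas without library 1 of CD11cint cells the difference was 0.09. The other 8 genes lay between -0.01 and 0.15 on the log2 scale. Their 95% intervals ran from -0.30 to 0.28 for Nlrc5, whose SE was 0.14, and for the others lay within -0.16 to 0.33, with SE of 0.07 to 0.09.

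Library 1 of CD11cint cells was the highest of its group for H2-K1, H2-D1 and B2m and the lowest for Nlrc5 and Erap1. Library 1 of March1-/- B cells had the same places in its own group for these 5 genes. In library 1 of CD11cint cells, the median deviation from the group mean was 0.30 on the log2 scale for the tenth of genes with the shortest exons (1026 genes, up to 1030 bases) and -0.28 for the tenth with the longest (1026 genes, from 9757 bases). For library 1 of the other groups these medians were 0.086 and -0.115 in March1-/- B cells and 0.088 and -0.084 in March1-/- cDC1. They were 0.104 and -0.064 in WT cDC1 and 0.03 and -0.006 in WT B cells. The part of these shifts in the members' values was not tested. Leaving out the 3 March1-/- libraries numbered 1 together gave the same number of members called in all 7 comparisons.

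In the pathway lists, CD11cint cells had 3 peptide supply genes higher and 1 lower of 12 than March1-/- B cells. Of all genes, 12.5% were called higher and 12.2% lower in this comparison. Psmb9 was at 124 ± 12.4 CPM in CD11cint cells, against 96.9 ± 0.83 CPM in March1-/- B cells (SD, n = 4 each; log2 0.35 ± 0.07 SE, edgeR adjusted p = 0.000366), and Npepps, the puromycin-sensitive aminopeptidase, was lower (-0.20 ± 0.06, edgeR adjusted p = 0.0233). None of the 7 folding genes was called by edgeR (1 with an unadjusted p under 0.05, none by DESeq2), and none of the 7 cross-presentation genes (2 with an unadjusted p under 0.05, 1 by DESeq2). Of 13 transcription genes, 6 were lower and none higher, among them Irf2 (-0.36 ± 0.08) and Nfyb (-0.34 ± 0.06). Interferon-response genes were split, with 3 higher, among them Isg15 (1.10 ± 0.14) and Ifit3 (0.55 ± 0.13), and 3 lower, among them Irf7 (-0.39 ± 0.08) and Iigp1 (-0.77 ± 0.27). T cell markers were lower in CD11cint cells in 6 of 7 genes, at 33.3 to 39.5 CPM in CD11cint cells, against 77.0 to 94.7 CPM in March1-/- B cells. Lck made up most of these sums, at 23.8 to 26.3 CPM in CD11cint cells and 52.2 to 69.0 CPM in March1-/- B cells. NK cell markers were lower in 4 and higher in 1 of 5 genes, at 10.3 to 22.1 CPM in CD11cint cells, against 15.2 to 51.4 CPM in March1-/- B cells. Markers of macrophages and monocytes were lower in 3 of 7 genes, at 37.0 to 46.8 and 60.2 to 75.5 CPM, and those of plasmacytoid dendritic cells in 1 of 4, at 177.1 to 216 and 171.9 to 208.1 CPM (CD11cint cells first). Tcf4 made up most of the plasmacytoid sums, at 143 to 191 and 136 to 160 CPM. Siglech (2.32 to 6.97 and 7.96 to 16.8 CPM) and Ccr9 (2.41 to 4.28 and 6.60 to 13.2 CPM) did not overlap between the groups, whereas Tcf4 and Bst2 did. The cDC1 markers were higher in 5 of 9 genes and the B cell markers in 1 of 6, with the sums given above. None of these genes was at 0, and their part was not tested.

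The ratio of the heavy chains within each library, per length, separated groups whose levels of either gene overlapped. H2-D1 over H2-K1 was 0.807, 0.839, 0.822 and 0.808 in CD11cint cells, 1.56, 1.54, 1.57 and 1.51 in March1-/- cDC1 and 0.927, 0.937, 0.941 and 0.926 in March1-/- B cells. In WT mice it was 1.56, 1.55, 1.52 and 1.48 in cDC1 and 0.895, 0.919, 0.914 and 0.895 in B cells. CD11cint cells lay below every B cell library and cDC1 above all others, without overlap. Libraries 1 and 4 of CD11cint cells were alike in this ratio, at 0.807 and 0.808. March1-/- B cells also lay above WT B cells without overlap, at 0.926 to 0.941 and 0.895 to 0.919, while cDC1 of both genotypes overlapped. These ratios are a description with no test. The values depend on the length used for each gene, and with the longest transcript the group means were 0.641, 1.21, 0.730, 1.20 and 0.709 in the same order of groups.

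B2m over the summed heavy chains averaged 1.42 ± 0.05 in CD11cint cells, 1.61 ± 0.09 in March1-/- cDC1, 1.37 ± 0.04 in March1-/- B cells, 1.63 ± 0.12 in WT cDC1 and 1.38 ± 0.08 in WT B cells (SD, n = 4 each). The ranges of CD11cint cells (1.37 to 1.48) and of March1-/- cDC1 (1.48 to 1.70) overlapped narrowly. Tap1 over Tap2 averaged 1.48 ± 0.16 in CD11cint cells, 1.43 ± 0.08 in March1-/- cDC1, 1.55 ± 0.08 in March1-/- B cells, 1.36 ± 0.01 in WT cDC1 and 1.51 ± 0.05 in WT B cells. In WT mice the ranges did not overlap, at 1.35 to 1.38 in cDC1, against 1.48 to 1.58 in B cells, whereas in March1-/- mice they did, at 1.36 to 1.55 in cDC1, against 1.44 to 1.64 in B cells. CD11cint cells, at 1.36 to 1.72, overlapped every other group. Both heavy chains together took 0.314% of CPM in CD11cint cells, 0.332% in March1-/- cDC1, 0.294% in March1-/- B cells, 0.346% in WT cDC1 and 0.277% in WT B cells.

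**Figure D5:**
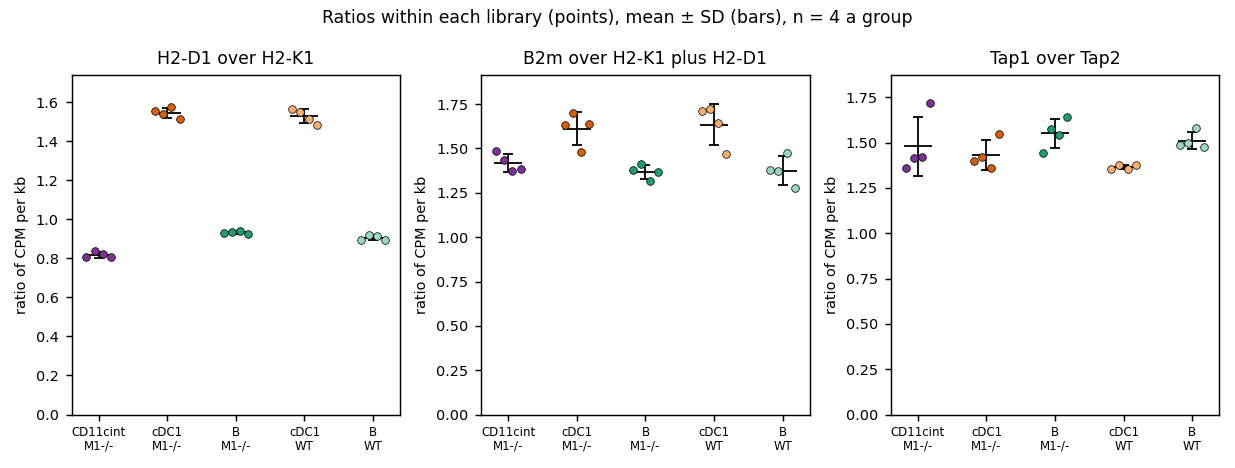
Ratios of levels per kilobase within each library (points; y axes from 0), with the mean ± SD of 4 libraries a group (bars). H2-D1 over H2-K1 lies at 0.807 to 0.839 in CD11cint cells, 1.48 to 1.57 in cDC1 of both genotypes, 0.926 to 0.941 in March1-/- B cells and 0.895 to 0.919 in WT B cells.

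The genotypes were compared last. In B cells none of the 9 genes was called between March1-/- and WT by edgeR, where 2.31% of all genes were called higher and 2.44% lower; none had an unadjusted p under 0.05, and DESeq2 called none. Log2 differences ran from -0.18 for Nlrc5 to 0.11 for H2-D1, with 95% intervals from -0.47 to 0.26. In cDC1 none was called either (edgeR; none by DESeq2), where 1.53% of all genes were called higher and 1.34% lower, and differences ran from -0.15 to 0.02, with intervals from -0.44 to 0.16. Erap1 had the only unadjusted p under 0.05, at 177 ± 7.2 CPM in March1-/- cDC1, against 197 ± 12.0 CPM in WT cDC1 (SD, n = 4 each; log2 -0.15 ± 0.07 SE, edgeR adjusted p = 0.404). The libraries of both genotypes overlapped in every gene and both cell types, although the ratio of H2-D1 to H2-K1 did not overlap in B cells. How many of all genes tested overlapped in the same way was not counted. The difference between the genotype effects in cDC1 and in B cells was called for none of the 9 by edgeR or DESeq2 (-0.16 to 0.03, edgeR adjusted p from 0.642 to 0.994; none had an unadjusted p under 0.05), where 1.49% of all genes were called higher and 0.871% lower.

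Of the lists, no gene of peptide supply, folding or cross-presentation was called between genotypes by edgeR in B cells or cDC1. Of all genes, 2.31% were called higher and 2.44% lower in B cells, and 1.53% and 1.34% in cDC1. Unadjusted p-values under 0.05 numbered 2 for peptide supply, 0 for folding and 1 for cross-presentation in each cell type, and DESeq2 called 1 peptide supply gene in B cells and none of the others. Rfxank, a subunit of the RFX complex, was lower in March1-/- cDC1, at 20.8 to 23.4 CPM against 31.1 to 37.0 CPM in WT cDC1 (log2 -0.63 ± 0.08, edgeR adjusted p = 4.6e-05). In B cells it was at 27.7 to 31.2 CPM in March1-/- mice and 33 to 36.7 CPM in WT mice, which did not pass the test. Whether Rfxank lies near March1 on chromosome 8, where flanking sequence could follow the genotype label, was not examined. Irf1, an interferon-induced activator, was also lower in March1-/- cDC1, at 126 ± 14.5 CPM against 159 ± 14.4 CPM in WT cDC1 (SD, n = 4 each; edgeR adjusted p = 0.0329), and its genotype effect differed between cDC1 and B cells (-0.50 ± 0.12, edgeR adjusted p = 0.0276). B cell markers moved with the genotype in cDC1, with 4 of 6 higher and none at 0, summing to 135.4 to 182.3 CPM in March1-/- cDC1, against 113.9 to 128.4 CPM in WT cDC1, and 1 of 4 markers of plasmacytoid dendritic cells was higher and 1 of 9 cDC1 markers lower there. In March1-/- B cells, 1 of 7 macrophage and monocyte markers and 1 of 9 cDC1 markers were lower than in WT B cells. Their part in the results was not tested. Of 13 interferon-response genes, Gbp2 and Usp18 were lower in March1-/- cDC1, and in March1-/- B cells Irf7 was higher and Isg15 lower.

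The genes whose pattern was nearest to each member were found over 10254 genes by the root mean square difference of centred log2 levels across 20 libraries. H2-D1 was nearest to H2-T23, a non-classical class I gene, at 0.0446. Part of the H2-D1 sequence also occurs in other genes, as given above, and the part of shared reads in this likeness was not tested. Tap2 was nearest to Gm15821 at 0.05, a gene that overlaps it on the opposite strand, with 35.5 ± 2.26 CPM in CD11cint cells, 76.6 ± 7.28 CPM in March1-/- cDC1, 33.8 ± 0.542 CPM in March1-/- B cells, 80.1 ± 6.58 CPM in WT cDC1, against 34.4 ± 4.25 CPM in WT B cells. Reads of this pair cannot be told apart if counting ignored the strand. Tapbp was nearest to Atf6b (0.0549), Tap1 to Mapk9 (0.0652), B2m to Tmem9b (0.0657), H2-K1 to Stk16 (0.0673), Erap1 to Caprin1 (0.076), Tapbpl to Tfg (0.0864) and Nlrc5 to Zswim8 (0.118). Among the 9 genes themselves, Tap2 and Tapbpl were nearest to each other (0.0928), and H2-K1 had the largest distance to its nearest member, B2m, at 0.328.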

How the data were processed

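The authors deposited raw read counts per gene, 1 table for each library and each of 2 lanes, and a table of the series that equals the lane sums in 566760 of 566760 cells. Tools listed in the submitters' processing notes are STAR, Subread, CASAVA, FastQC, edgeR and limma, with the build GRCm38 (mm10). Per the labels' protocols, cells were sorted on a BD Influx, RNA was purified with an RNeasy kit and libraries followed Illumina TruSeq protocols. Of the gene identifiers, 28290 matched GENCODE M21, which gave symbols, positions and exon lengths, and 48 did not. Libraries of a group differed by more than sampling noise, so each was counted as 1 sample.

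Counts were tested with edgeR 4.0.16 (quasi-likelihood F test, TMM factors, filterByExpr, robust) in R 4.3.3. The main results come from 1 fit of 5 groups and 7 contrasts with no replicate block. P-values were Benjamini-Hochberg adjusted over 18710 genes that hold 99.9459% of counts, with a threshold of 0.05 and 15 residual degrees of freedom. Called means past it, higher or lower as the log2 difference. The quasi-likelihood step was tested on simulated data that held no pairing and no difference between cDC1 and B cells. Such data cannot show how the missing block or the scaling between these cell types acts. SE is the log2 difference over the root of F. DESeq2 1.42.0, RLE factors, library totals, no filter, compared groups alone, replicate blocks and omission of libraries were alternatives. CPM, ratios and figures were made in Python 3.11.15. Same-numbered libraries of CD11cint and March1-/- B cells, numbered in the titles, correlated in their deviations at 0.503, 0.213, 0.243 and 0.407. Other pairs of groups held a correlation under 0.1. In every pair of groups of 1 genotype, all 4 libraries of the first group correlated best with their own number in the second. Between genotypes 2 or 3 did. The main fit did not use this pairing for any comparison, and the replicate blocks were alternatives only.

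Gene lists were peptide supply, folding and loading in the endoplasmic reticulum, class I transcription, cross-presentation, interferon response and cell type markers. From each, the 2 called genes with the largest absolute log2 difference in each direction and comparison could be named, besides all 9 members and, for each member, the 3 genes of most similar pattern. The members and lists were chosen with earlier results of these data known. The floor of 3 counts covers counting error only, as no molecular identifiers are recorded.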

Additional observations from a re-analysis of the deposited data

Results flagged for a closer look

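Each gene and ratio was screened for a library that stands apart within its group of 4, in 60 groups, by Dixon's 95% critical value for its gap over the group's range, which chance exceeds in about 1 of 20 groups. In March1-/- cDC1, the highest library of H2-K1 stood apart at 1461 CPM, where the other libraries were at 1389 to 1392 CPM. In WT cDC1, the highest library of H2-K1 stood apart at 1580 CPM, where the others were at 1433 to 1458 CPM. The lowest WT B cell library of H2-D1 stood apart at 1187 CPM, where the others were at 1238 to 1245 CPM. The highest CD11cint library of Tap1 over Tap2 stood apart at 1.72, where the others were at 1.36 to 1.42.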

How the results depend on the processing

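Of 63 member values (9 genes in 7 comparisons) under up to 28 alternatives each, 1691 of 1746 values kept their direction and their side of the threshold. Of 26 called values none reversed and 2 lost the call somewhere. Values that changed sign were all uncalled, 13 in number, and at most 0.108 in size after the change.

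With the replicate block over all groups, the genes called for the interaction numbered 680, against 441 without it. With the replicate block within genotype they numbered 978, and 1 member was called in CD11cint cells against March1-/- B cells, H2-K1, where none was called without it; the blocks changed no other member's call. In every pair of groups of 1 genotype, all 4 libraries of the first group correlated best with their own number in the second, against 2 or 3 between genotypes. Whether same-numbered libraries stem from the same mice was not tested. DESeq2 gave 679 for the interaction. Fitting only CD11cint and March1-/- B cells left 3018 genes called, against 4613. The causes were not tested.

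With 1 library left out, 574 to 1184 genes were called in March1-/- B cells against WT B cells (890 with all, lowest without library 3 of March1-/- B cells), and 0 to 1 members in CD11cint cells against March1-/- B cells. Library totals as the scale moved the median of all genes by -0.211 in WT cDC1 against WT B cells, -0.206 in March1-/- cDC1 against March1-/- B cells and 0.149 in CD11cint cells against March1-/- cDC1. The higher share of calls was then 36.3% (49.1% with TMM), 37.7% (49.9%) and, in CD11cint cells against March1-/- B cells, 39.0% (50.6%).

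Sign changes were these, as log2 differences. In March1-/- B cells against WT B cells, Tap2 was 0.0128 with RLE factors, 0.0098 with library totals, 0.00619 without the filter and 0.0147 by DESeq2, and -0.0495 to 0.0294 with 1 library left out; Tapbp was -0.00483 without the March1-/- libraries numbered 1, and -0.00477 to 0.0634 with 1 left out. In March1-/- cDC1 against WT cDC1, leaving out 1 library gave -0.00612 to 0.0764 for Tap1 and -0.0961 to 0.0058 for Tap2. In CD11cint cells against March1-/- B cells, library totals gave -0.0413 for Tap1 and -0.000407 for Tapbpl, and no filter gave 0.0119 for H2-D1 and 0.00593 for Nlrc5. Without the libraries numbered 1, Tap1 was -0.00154 and Nlrc5 0.0376 there, and with 1 left out H2-D1 was -0.0918 to 0.0439, Tap1 -0.015 to 0.0406 and Nlrc5 -0.128 to 0.108. For the interaction, Tapbpl was 0.0392 without the libraries numbered 1, and leaving out 1 gave -0.0409 to 0.0416 for Tap1, -0.0922 to 0.00994 for Tap2, -0.0809 to 0.029 for Tapbpl, -0.0548 to 0.152 for Nlrc5 and -0.0504 to 0.0203 for Erap1.

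The lowest member value was 33.6 CPM, far above the floor of 3 counts, while the unstated strand and read length and the sequence shared among class I genes limit what the counts mean. With 4 libraries a group, the SE of a member's log2 difference between 2 groups was 0.066 to 0.141.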
